A study of Mus musculus with 6 samples.

Results

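The 37 genes described here encode parts of the signalling route that runs from receptors of the tumour necrosis factor family to NF-kB and to the MAP kinases. They were chosen by name from a table of 54532 genes: 2 receptors, 5 TRAF adaptors, 6 genes of MAP3 kinases and their partners, 5 IkB kinases and relatives, 5 NF-kB subunits, 2 IkB inhibitors, 8 MAP2 and MAP kinases and 4 regulators that act on or through ubiquitin. RNA was sequenced from bone marrow cells of the tibia that had been selected for CD11b, an integrin chain of myeloid cells, in mice aged 12 weeks. There were 3 libraries titled Tshr+/+ (genotype label WT) and 3 titled Tshr-/- (genotype label Tshr knockdown), each numbered 1 to 3. Tshr is the gene of the thyroid-stimulating hormone receptor, and the study's title names AMPK signalling in osteoclasts. All 6 libraries carry the treatment label osteoclast differentiation with no time, and the labels describe no culture. The sources used here do not give the strain, the sex or the way the mutation was made.

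Osteoclasts, the cells that resorb bone, form from myeloid precursors when RANK on their surface binds its ligand. RANK and the receptors of tumour necrosis factor recruit TRAF proteins, which act through the kinase TAK1 on the IkB kinases and on the MAP kinase cascades. IkB kinases mark the IkB inhibitors for destruction, which frees NF-kB dimers to enter the nucleus, while a slower branch runs through NIK and the processing of the Nfkb2 product. Several genes of the route are themselves switched on by NF-kB, so that the system feeds back on itself. Kinase activity is set mainly by phosphorylation, which RNA levels do not measure.

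The libraries held 14698126 to 17976477 fragments assigned to genes. Levels are in FPKM, fragments scaled to gene length and library size, which can be compared between genes. Tshr had 0.537, 0.552 and 0.405 FPKM in Tshr+/+ libraries 1, 2 and 3, against 0.414, 0.297 and 0.00825 FPKM in those labelled Tshr-/- (exact two-sided permutation test, p = 0.2, the smallest possible being 0.1). The libraries labelled Tshr-/- 1 and 2 still held 40 and 25 fragments of Tshr, where the Tshr+/+ libraries held 45 to 55. How the gene was altered is not stated, and every direction below is that of the labels. Itgam, the CD11b gene, had 87.4 to 134 FPKM. Of 8 osteoclast markers, Calcr, Ocstamp, Dcstamp and Oscar stayed under 1 FPKM in every library, and Calcr was at 0 in 5 of them. The other 4 reached 1 FPKM in at least 1 library: Mmp9, which neutrophils also express, had 815 to 1419 FPKM, Acp5 5.12 to 29.7 FPKM, Ctsk 3.30 to 37.4 FPKM and Atp6v0d2 0.156 to 1.16 FPKM, each highest in Tshr-/- 2. The libraries numbered 3 stood apart in both genotypes for many of the 37 genes, as described below, so the results that rest on them are given with and without them. In bulk RNA, fewer cells of a type and less RNA per cell cannot be told apart.

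None of the 36 tested genes differed between the genotypes past the threshold, and Traf1 was too low to be tested. The estimates were small, but those of genes with a wide spread were imprecise, as for Nfkbie (log2 fold change -0.28 ± 0.62, SE). On the log2(FPKM + 1) scale, which understates changes of low genes, the 36 tested genes had fold changes between -0.28 and 0.21, with 12 above 0, 24 below 0 and a median of -0.08. The median over all 10913 tested genes was -0.01. With limma, 0 of the 36 genes passed an adjusted p under 0.05 in either direction (background 0% higher and 0% lower), and 0 were under an unadjusted p of 0.05, a level that 2.9% of all tested genes reached. Without Tshr+/+ 3 that unadjusted level was reached by 5 of the 36 (13.9%, against 13.9% of all tested genes), and without both libraries numbered 3 by 8 (22.2%, against 14.4%): Tnfrsf1b, Traf6, Tab3, Nfkb2, Rel, Nfkbib, Nfkbie and Map2k3, all lower in Tshr-/-. With libraries weighted by their fit (array weights) it was 7 (19.4%, against 23.4%), and 0 passed after adjustment in each case. The voom method on whole fragments called 0 of them as well. In 28 of the 36 genes the standard error was larger than the fold change itself. The 3 Tshr-/- values all lay above the 3 Tshr+/+ values in 1 of the 36 genes, Traf3 (3.23% of all tested genes), and all below them in 0 (3.55%; in either direction 6.77%).

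**Figure D1:**
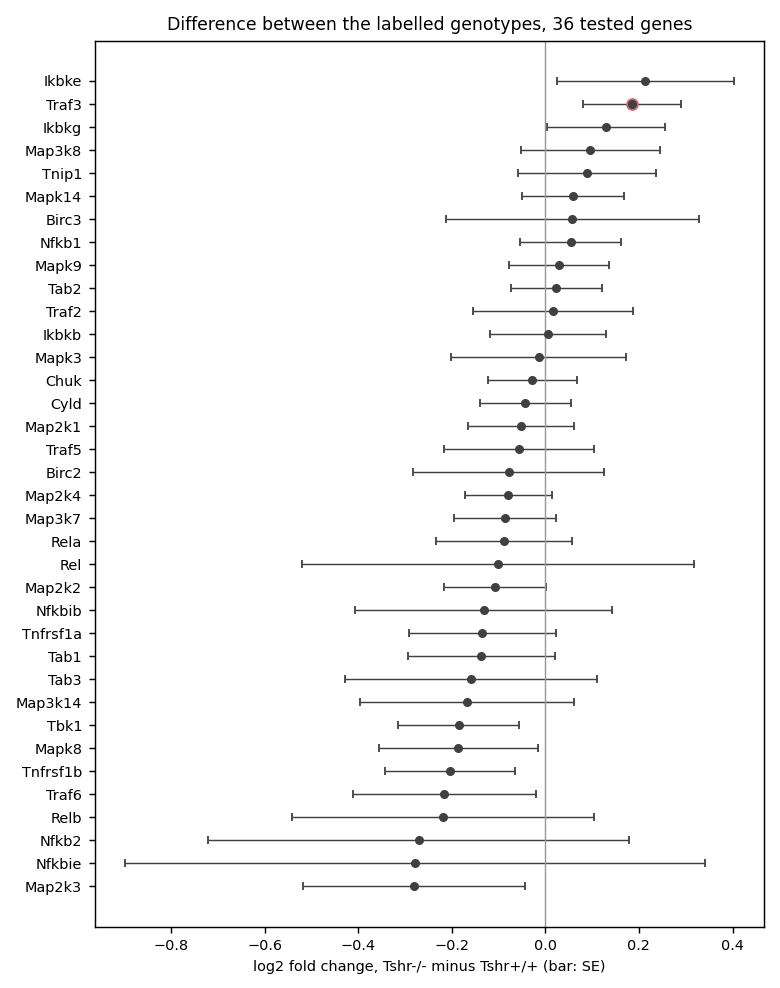
Log2 fold change of the 36 tested signalling genes, libraries labelled Tshr-/- minus Tshr+/+, on the log2(FPKM + 1) scale (horizontal axis; points are estimates and bars standard errors from limma, n = 3 libraries per group). The estimates lie between -0.28 (Map2k3) and 0.21 (Ikbke), and Traf3, marked in red, is the gene whose groups do not overlap.

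The receptors of tumour necrosis factor were abundant, and RANK was scarce. Tnfrsf1a, which encodes the widely expressed receptor with a death domain, was the most abundant of the 37 genes, with 204, 187 and 150.3 FPKM in Tshr+/+ against 168, 182 and 142 FPKM in Tshr-/-. The lowest value in each genotype came from the library numbered 3, and the groups overlapped. Tnfrsf1b, the receptor gene most active in immune cells, had 81.8, 72.2 and 59.1 FPKM in Tshr+/+ and 63.4, 61.2 and 58.3 FPKM in Tshr-/-. Its Tshr+/+ library 3 fell among the Tshr-/- values. Tnfrsf11a, the RANK gene, is not among the 37 and was too low to be tested: it had 0.353, 0.252 and 0.425 FPKM in Tshr+/+ and 0.467, 0.548 and 0.730 FPKM in Tshr-/-. All 3 Tshr-/- libraries exceeded the Tshr+/+ libraries. The values rest on 25 to 88 fragments per library, and the exact 95% Poisson intervals of the nearest libraries overlapped (0.312 to 0.565 FPKM for Tshr+/+ 3 and 0.341 to 0.625 FPKM for Tshr-/- 1, counting error only). Tnfsf11, the gene of RANK's ligand, had 0 to 4 fragments per library.

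**Figure D2:**
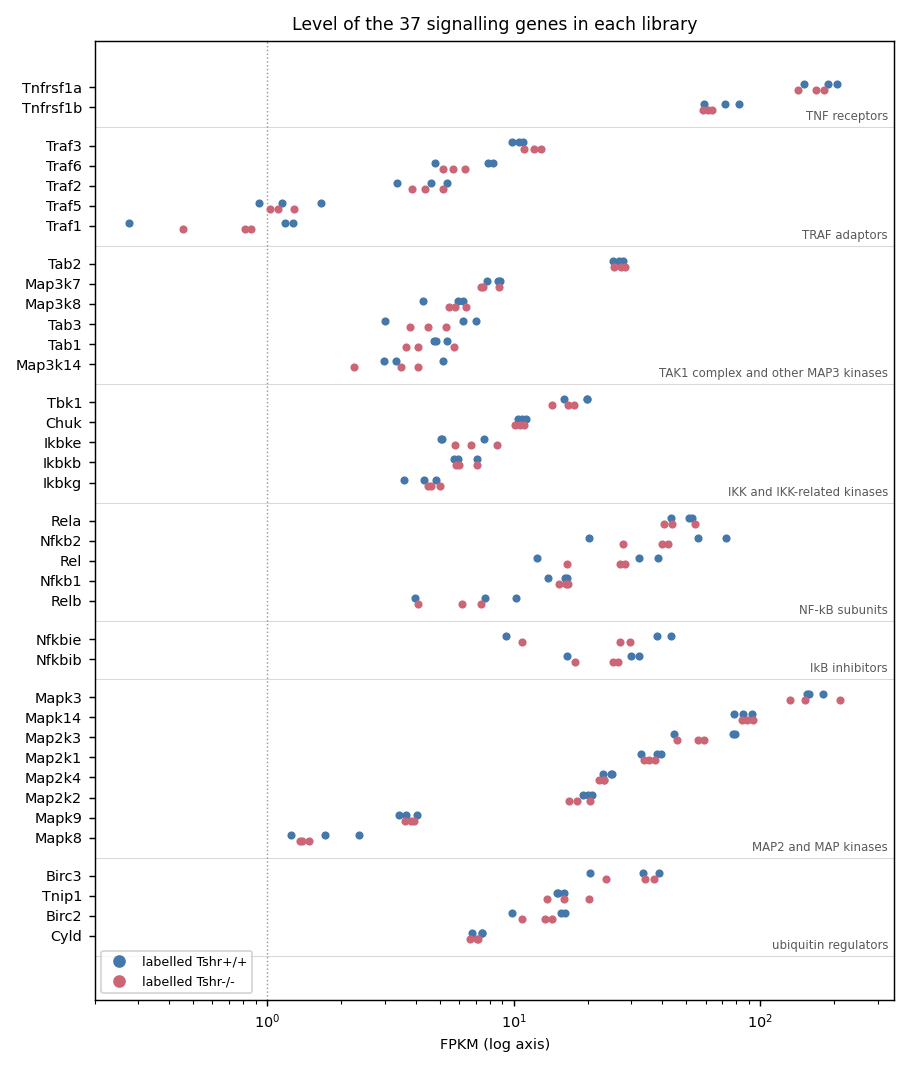
FPKM of each of the 37 genes in each of the 6 libraries (log axis), in blocks by role, with libraries labelled Tshr+/+ in blue and Tshr-/- in red; the dotted line marks 1 FPKM. Within most genes the colours intermix, and levels run from 0.276 FPKM (Traf1 in Tshr+/+ 3) to 211 FPKM (Mapk3 in Tshr-/- 2).

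Among the TRAF adaptors, Traf3 was the only one whose groups did not overlap. Traf3 restrains the slower NF-kB branch by directing NIK to degradation. It lies on chromosome 12 from 111166370 to 111267153 of GRCm38, plus strand (ENSMUSG00000021277). It had 9.81, 10.9 and 10.5 FPKM in Tshr+/+ and 11.0, 12.9 and 12.1 FPKM in Tshr-/-, means of 10.4 ± 0.562 and 12.0 ± 0.963 FPKM (SD, n = 3). The lowest Tshr-/- value was 10.99 FPKM and the highest Tshr+/+ value 10.91 FPKM, so the gap between the groups was narrow. The log2 fold change was 0.19 ± 0.11 (SE) and did not pass (limma, adjusted p = 0.9997, 0.834 with the library number as a block and 0.504 to 1.00 over its alternatives). Traf3 was higher in 3 of 3 same-numbered pairs, which is fixed once groups do not overlap and adds nothing to it. When libraries were rescaled to equal totals the groups overlapped, while the fold change stayed above 0 (0.23). In the annotation 4930595D18Rik overlaps Traf3 on the other strand. It had 10 to 22 fragments per library, and the sources used here do not say whether counting used strand.

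Traf6, the adaptor that couples RANK to TAK1, had 8.21, 7.88 and 4.79 FPKM in Tshr+/+ and 6.32, 5.15 and 5.70 FPKM in Tshr-/-. Tshr+/+ libraries 1 and 2 lay above the other 4. Traf2, which links the tumour necrosis factor receptors to NF-kB and JNK, had 4.44 ± 1.00 and 4.46 ± 0.654 FPKM (SD, n = 3), and Traf5, its relative, had 1.24 ± 0.369 and 1.14 ± 0.130 FPKM. Traf1, an adaptor known as an NF-kB target, did not pass the filter of 1 FPKM in 3 libraries. It had 1.18, 1.27 and 0.276 FPKM in Tshr+/+ and 0.811, 0.857 and 0.456 FPKM in Tshr-/-, from 45 to 186 fragments. The libraries numbered 3 were the lowest of each genotype: the exact 95% Poisson interval of Tshr+/+ 3 (0.201 to 0.369 FPKM) lay below those of all libraries numbered 1 and 2.

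In the TAK1 complex and among the other MAP3 kinases the groups overlapped in all 6 genes. Tab2 was the most abundant of them, with 26.5 ± 1.24 FPKM in Tshr+/+ against 27.0 ± 1.30 FPKM in Tshr-/- (SD, n = 3). Tab2 and Tab3 encode proteins that bind ubiquitin chains and bring TAK1 to them. Tab3 had 7.02, 6.24 and 3.00 FPKM in Tshr+/+ and 5.31, 4.50 and 3.80 FPKM in Tshr-/-, so that its most extreme values were both Tshr+/+. Map3k7, which encodes TAK1, had 8.40 ± 0.512 and 7.87 ± 0.752 FPKM, and Tab1, its activating partner, had 4.98 ± 0.329 and 4.50 ± 1.09 FPKM. Map3k14, the gene of NIK, had 3.82 ± 1.16 and 3.28 ± 0.946 FPKM. Map3k8, the kinase Tpl2 that leads to ERK, had 5.50 ± 1.06 and 5.89 ± 0.479 FPKM.

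The IkB kinase genes differed in how steady they were. Chuk, which encodes the alpha subunit and had the second smallest spread within groups of the 36 genes, varied between 10.1 and 11.2 FPKM over all 6 libraries, and Ikbkb, the beta subunit, between 5.74 and 7.12 FPKM. The regulatory subunit gene Ikbkg had 4.25 ± 0.636 and 4.72 ± 0.291 FPKM (SD, n = 3). It overlaps the far more abundant G6pdx on the opposite strand, which had 170.4 to 200.2 FPKM. Ikbke, a related kinase of antiviral signalling, had 5.08, 5.12 and 7.57 FPKM in Tshr+/+ and 6.71, 5.77 and 8.54 FPKM in Tshr-/-. Within each pair of libraries with the same number the Tshr-/- value was the higher, yet Tshr+/+ 3 exceeded Tshr-/- 1 and 2. Tbk1, its closest relative, went the other way in every pair, with 19.8, 19.8 and 16.0 FPKM against 17.5, 16.6 and 14.4 FPKM. Of the 36 genes, 2 were higher in all 3 pairs (5.56%, against 12.2% of all tested genes) and 5 were lower in all 3 (13.9%, against 14.5%). Beside Ikbke stand the interferon-induced genes, of which 21 of 21 had a higher mean log2(FPKM + 1) in Tshr-/-. Of all 10913 tested genes 5138 did. The list was chosen with earlier results of these data known, so the count is no independent evidence. None of the interferon-induced genes passed (limma, adjusted p = 0.9997 for each). Their summed level was 188 to 249.8 FPKM in Tshr+/+ and 278.9 to 362 FPKM in Tshr-/-, and their part in the values of Ikbke was not tested.

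The NF-kB subunits Nfkb2, Rel and Relb and both IkB inhibitors varied more between libraries of the same genotype than between the genotype means. The widest spread belonged to Nfkbie, the gene of the inhibitor IkB epsilon (chromosome 17, 45555703 to 45563169, plus strand). It had 38.0, 43.5 and 9.32 FPKM in Tshr+/+ and 26.9, 29.5 and 10.8 FPKM in Tshr-/-. The library numbered 3 was the low one in both genotypes, and the highest value was 4.67 times the lowest. Nfkb2, the precursor subunit of the slower branch (chromosome 19, 46304737 to 46312090, plus strand), had 56.0, 72.7 and 20.2 FPKM in Tshr+/+ and 42.2, 39.8 and 27.7 FPKM in Tshr-/-. Rel, the subunit c-Rel of blood cells (chromosome 11, 23736847 to 23770970, minus strand), had 32.2, 38.5 and 12.5 FPKM and 28.3, 27.0 and 16.4 FPKM. Relb, the partner of the Nfkb2 product, had 7.66, 10.2 and 3.99 FPKM and 6.19, 7.40 and 4.07 FPKM. In all 4 genes the libraries numbered 3 were the lowest of the 6, and Tshr+/+ 2 was the highest.

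Nfkbib, which encodes IkB beta, followed the same order at its low end, with 29.9, 32.2 and 16.4 FPKM in Tshr+/+ and 26.5, 25.2 and 17.8 FPKM in Tshr-/-. The other subunits varied less. Rela, the main activating subunit, had 49.1 ± 5.04 FPKM in Tshr+/+ against 46.3 ± 7.15 FPKM in Tshr-/- (SD, n = 3), and Nfkb1, its usual partner, had 15.5 ± 1.46 and 16.1 ± 0.665 FPKM. Ranked by the spread left within groups, Nfkbie stood at the 99.3rd percentile of all tested genes, Nfkb2 at the 97.1st, Rel at the 96.3rd and Relb at the 92.1st, while Nfkb1 stood at the 15.2nd.

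**Figure D3:**
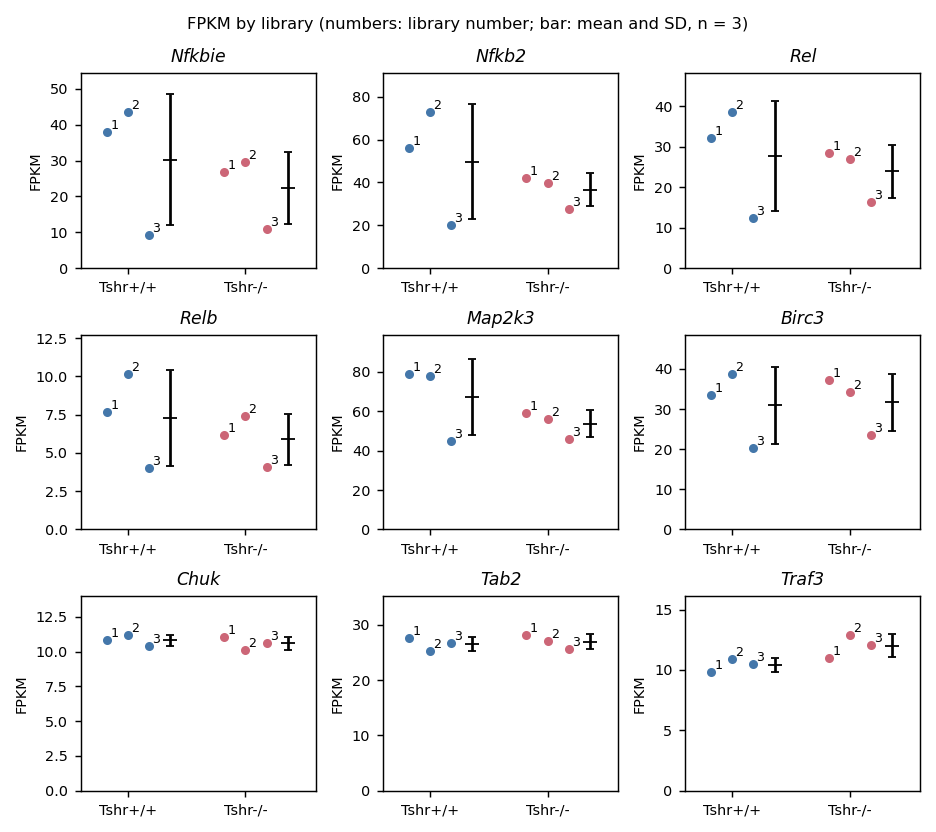
FPKM by library for 9 genes (vertical axes start at 0; numbers beside points are library numbers, blue Tshr+/+ and red Tshr-/-, black bars mean and SD of n = 3). Library 3 is the low point of each genotype for Nfkbie, Nfkb2, Rel, Relb, Map2k3 and Birc3, while Chuk and Tab2 are level and Traf3 is slightly higher in Tshr-/-.

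The genotype difference of these genes depended on which libraries were compared. The log2 fold changes over all 6 libraries were -0.28 ± 0.62 (SE) for Nfkbie, -0.27 ± 0.45 for Nfkb2, -0.10 ± 0.42 for Rel and -0.22 ± 0.32 for Relb (limma, adjusted p = 0.9997 for each). Within the pair numbered 1 the log2 difference, Tshr-/- minus Tshr+/+, was -0.48 for Nfkbie and -0.40 for Nfkb2, and within the pair numbered 2 it was -0.55 and -0.85. Within the pair numbered 3 it was above 0, at 0.19 and 0.44. Without both libraries numbered 3 the log2 fold changes were -0.51 for Nfkbie, -0.63 for Nfkb2, -0.34 for Rel and -0.34 for Relb, with limma adjusted p of 0.160, 0.169, 0.307 and 0.414. Leaving out Tshr+/+ 3 alone gave -0.95, -0.81, -0.58 and -0.55. Leaving out Tshr+/+ 2 alone turned all 4 above 0 (0.10, 0.090, 0.20 and 0.036).

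Promoter sequences are shown because NF-kB itself is known to act on several of these genes. RefSeq start sites on GRCm38.p6 gave 41 windows for 31 of the 37 genes, each from 250 bases before to 50 after the start. They were searched on both strands for a form of the kB motif (GGG, a purine, any 2 bases and TTCC) and for TGANTCA, a form of the AP-1 motif on which MAP kinase signalling converges. A kB form was present in 7 of the 31 genes (22.6%), against 3.26% of all 27025 genes with a window, and an AP-1 form in 4 (12.9%), against 8.97%. These shares are a description and not a test. The 37 genes were chosen by name for this route, and 8 of them are known NF-kB targets. The background was not matched for promoter type or number of windows. The genes with a kB form were Nfkb2, Nfkbie, Rel, Traf3, Tnip1, Map3k7 and Cyld. The 160 bases before the start are given 5′ to 3′ on the strand of the gene, with the matches in capitals, for 3 genes of wide spread and 2 of narrow spread that hold a kB form: Nfkb2 (chr19:46304577-46304736, plus strand), Rel (chr11:23770970-23771129, minus strand), Nfkbie (chr17:45555540-45555699, plus strand), Traf3 (chr12:111166210-111166369, plus strand) and Map3k7 (chr4:31963947-31964106, plus strand).
Nfkb2: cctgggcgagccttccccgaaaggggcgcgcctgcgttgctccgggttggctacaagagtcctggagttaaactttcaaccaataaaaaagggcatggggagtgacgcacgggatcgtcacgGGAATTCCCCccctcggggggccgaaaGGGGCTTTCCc
Rel: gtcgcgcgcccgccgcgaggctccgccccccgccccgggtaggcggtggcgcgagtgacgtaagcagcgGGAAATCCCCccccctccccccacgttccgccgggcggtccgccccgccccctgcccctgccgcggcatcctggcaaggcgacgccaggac
Nfkbie: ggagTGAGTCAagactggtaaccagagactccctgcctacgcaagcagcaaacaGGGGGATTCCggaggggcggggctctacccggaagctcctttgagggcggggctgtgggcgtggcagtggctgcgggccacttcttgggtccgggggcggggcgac
Traf3: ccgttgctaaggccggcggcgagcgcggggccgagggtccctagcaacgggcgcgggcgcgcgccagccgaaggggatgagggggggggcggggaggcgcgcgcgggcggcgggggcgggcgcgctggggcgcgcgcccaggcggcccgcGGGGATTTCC
Map3k7: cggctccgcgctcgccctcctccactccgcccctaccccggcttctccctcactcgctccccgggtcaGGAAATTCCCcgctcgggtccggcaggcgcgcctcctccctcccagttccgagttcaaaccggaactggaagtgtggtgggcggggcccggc

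Nfkb2 has 2 kB matches in the stretch shown, and Nfkbie has a kB match and, farther from the start, the AP-1 match TGAGTCA. A match is a run of letters and not a measured site. Genes with a match did not share a degree of spread: the highest library was 4.67 times the lowest for Nfkbie, 3.60 times for Nfkb2 and 3.08 times for Rel, but 1.47 times for Tnip1, 1.32 times for Traf3, 1.20 times for Map3k7 and 1.12 times for Cyld. Relb and Nfkb1 had no entry in the table.

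The MAP kinase cascades were led by Mapk3, which encodes ERK1. It had 155, 180.2 and 158 FPKM in Tshr+/+ and 152, 211 and 132 FPKM in Tshr-/-, with the highest and the lowest value both in Tshr-/-. Mapk14, the main p38 kinase, was the third most abundant of the 37 genes, with 85.0, 78.5 and 92.3 FPKM against 84.6, 88.4 and 93.2 FPKM, and the groups overlapped. The JNK genes were low: Mapk9 had 3.71 ± 0.323 and 3.80 ± 0.157 FPKM (SD, n = 3), and Mapk8 had 1.77 ± 0.558 and 1.41 ± 0.0585 FPKM. Their upstream kinase Map2k4 had 24.2 ± 1.10 and 22.9 ± 0.587 FPKM, and those of ERK, Map2k1 and Map2k2, had 36.9 ± 3.63 and 35.5 ± 1.91 FPKM and 19.9 ± 0.812 and 18.4 ± 1.87 FPKM. Map2k3, a kinase that activates p38, had the largest spread within groups of the 8 genes on the log2 scale, though its highest value was 1.77 times its lowest, against 1.89 times for Mapk8. It had 79.1, 77.6 and 44.7 FPKM in Tshr+/+ and 59.1, 55.9 and 45.8 FPKM in Tshr-/-. Both libraries numbered 3 were low, and among the others Tshr+/+ exceeded Tshr-/-. Its log2 fold change was the lowest of the 36 genes at -0.28 ± 0.24 (SE; limma, adjusted p = 0.9997). Without both libraries numbered 3 it was -0.44 (limma, adjusted p = 0.153), and without Tshr+/+ 3 alone it was -0.55.

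Among the regulators that act on or through ubiquitin, the apoptosis inhibitors Birc2 and Birc3, ubiquitin ligases bound to TRAF proteins, were low in the libraries numbered 3. Birc3, a known NF-kB target, had 33.5, 38.8 and 20.3 FPKM in Tshr+/+ and 37.2, 34.2 and 23.6 FPKM in Tshr-/-. Birc2 had 13.8 ± 3.51 and 12.8 ± 1.82 FPKM (SD, n = 3). Cyld, which removes ubiquitin chains and so dampens the route, was level at 7.21 ± 0.374 and 6.97 ± 0.293 FPKM. Tnip1, an inhibitor that binds ubiquitin and works with A20, had 15.4 ± 0.587 and 16.6 ± 3.29 FPKM, with a single high library of 20.2 FPKM, Tshr-/- 2.

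Over the 36 tested genes, both libraries numbered 3 lay below the other 4 in 16 genes (44.4%, against 19.7% of all tested genes) and above them in 6 (16.7%, against 17%), a count made after the values had been seen. Of 7 tested genes among the 37 that are known NF-kB targets, 6 were in the low set: Nfkb2, Rel, Relb, Nfkbie, Birc3 and Tnip1. Relative to the sum of fragments, the deposited library sizes were largest in Tshr+/+ 3 and Tshr-/- 3 (1.08 and 1.12 times). The count depends on scaling. When libraries were rescaled to equal totals it was 6 below (16.7%, against 7.24%), of them 5 NF-kB targets, and 13 above (36.1%, against 38.5%). Among the genes then no longer below were Map2k3, Birc2, Tnip1, Tnfrsf1a and Tnfrsf1b. The genes Nfkb2, Rel, Relb, Nfkbib, Nfkbie and Birc3 were below under all 4 scalings tried, and Traf5, Map3k7, Ikbkb, Ikbke, Mapk9 and Mapk14 were above under all 4. Cell type markers also varied between libraries, and those of neutrophils did not all vary alike in the libraries numbered 3. The summed level of 10 neutrophil markers was 121700 and 139300 FPKM in Tshr+/+ 1 and 2 and 114900 FPKM in Tshr+/+ 3, and 130500 and 143500 FPKM in Tshr-/- 1 and 2 and 92450 FPKM in Tshr-/- 3. The sum is mostly S100a8, S100a9 and Ngp, and not every marker followed it. In Tshr+/+ 3 and Tshr-/- 3, S100a9 had 39257 and 34947 FPKM, Ltf 4639 and 3536 FPKM and Mmp8 572 and 544 FPKM. These 3 markers were lower in both libraries than in the other 4, and the remaining markers of the list were not. Cxcr2 had 138.6 FPKM in Tshr+/+ 3, the highest of the 6 libraries. Ly6g (415.8 FPKM) and Csf3r (421.5 FPKM) were higher in Tshr+/+ 3 than in Tshr+/+ 1 and 2. The median deviation of the 10 markers from their means was -0.03 in Tshr+/+ 1, 0.10 in Tshr+/+ 2 and -0.04 in Tshr+/+ 3 (log2 scale), and -0.43 in Tshr-/- 3. The summed level of 8 monocyte markers was 680.5, 664 and 772 FPKM in Tshr+/+ and 819, 651 and 902 FPKM in Tshr-/-. Their median deviation was -0.10, -0.33 and 0.20 in Tshr+/+ and 0.05, -0.48 and 0.61 in Tshr-/- (log2 scale). Ccr2, Csf1r, Ms4a6c, Fn1, Cx3cr1 and Ctss were higher in both libraries numbered 3 than in the other 4. Ccr2, for instance, had 32.5 and 29.9 FPKM in Tshr+/+ 3 and Tshr-/- 3, against 11.4 to 18.4 FPKM in the others. F13a1 and Ly6c2 did not follow that order. Ly6c2, the most abundant of the 8, had 353, 394 and 379 FPKM in Tshr+/+ and 478, 416 and 378 FPKM in Tshr-/-. Between genotypes, 4 of the 10 neutrophil and 6 of the 8 monocyte markers had a higher mean log2(FPKM + 1) in Tshr-/-. Ly6g, Camp and Retnlg, not among the 4, had a higher mean in plain FPKM there. Their means were 394, 10461 and 6411 FPKM in Tshr-/- against 384, 10448 and 6302 FPKM in Tshr+/+. No marker of either list was at 0, and their part in the pattern was not tested.

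**Figure D4:**
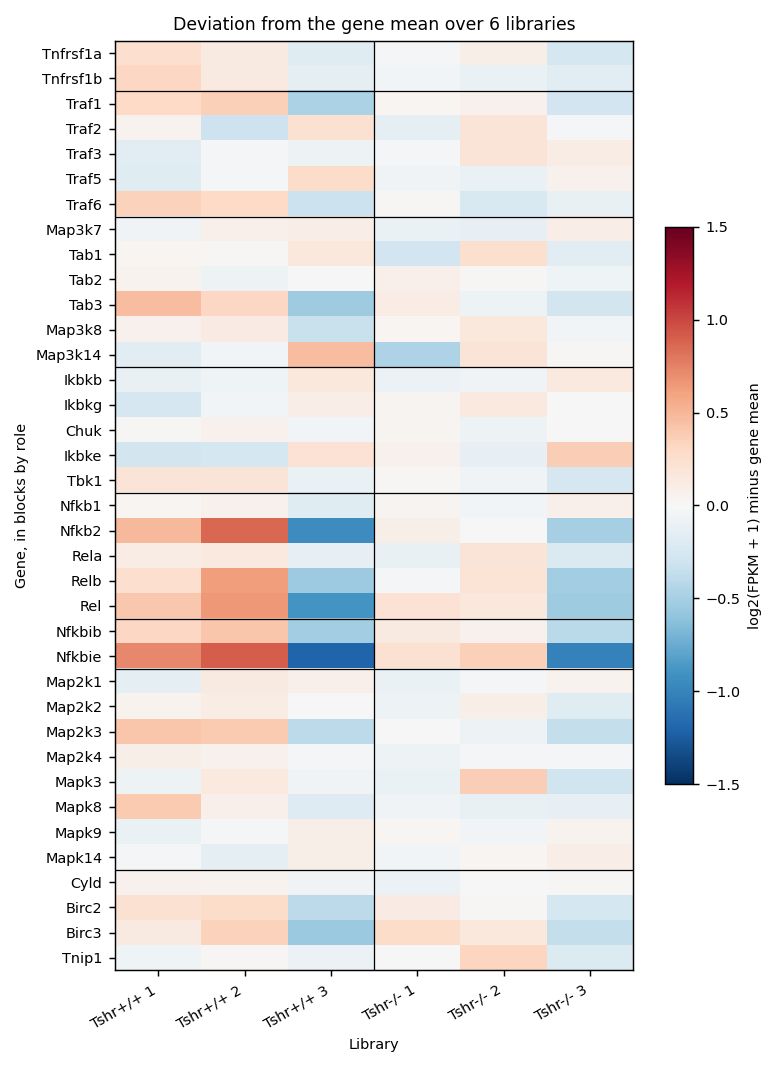
Deviation of each library from the gene's mean over the 6 libraries, log2(FPKM + 1) scale (red above, blue below), for the 37 genes in blocks by role. The blue cells of the libraries numbered 3 in Nfkb2, Relb, Rel, Nfkbib and Nfkbie appear in both genotypes.

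Other genes of the route, 30 in a list beside the 37, gave a similar picture. Of these 22 were tested, 12 had a fold change above 0 and 10 below 0, with a median of 0.03, and 0 passed (limma; 0 under an unadjusted p of 0.05, and 0 without overlap). Nfkbia, the inhibitor IkB alpha and a standard NF-kB target, had 353, 416 and 135 FPKM in Tshr+/+ and 353, 421 and 144 FPKM in Tshr-/-. The libraries of the same number were close to each other, and both numbered 3 were low.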

How the data were processed

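FPKM were made by the authors and used as deposited; the build was GRCm38 (mm10), per the submitters' processing notes, and the sources used here do not give the aligner, the counter or the use of strand. Columns headed WT and HO were matched to the titles by genotype and number, HO being read as homozygous. In each library FPKM multiplied by gene length came out as whole numbers of a common step (100% of values within 0.01), so fragments could be computed. The deposited library sizes were 1.08 and 1.12 times the sum of fragments in Tshr+/+ 3 and Tshr-/- 3, and 0.939 to 0.994 times in the others. The deposited scaling therefore lowers FPKM in both libraries numbered 3 relative to equal totals. The 36 tested genes had at least 66 fragments in every library, and at least 100 in 35 of them.

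Values were put on the scale log2(FPKM + 1). The 10913 genes that reached 1 FPKM in 3 or more of the 6 libraries were compared by group with limma 3.58.1 in R 4.3.3 (empirical Bayes with trend, two-sided, Benjamini-Hochberg over all tested genes, threshold 0.05), after a check on simulated data. Nothing says beyond the title numbers that libraries are separate animals, so p-values measure the spread between libraries. Deviations from group means correlated between same-numbered libraries (r = 0.243, 0.262 and 0.468 across genes). Each was over 0.1, which was taken as possible pairing, from the data and not from the labels. This level cannot establish pairing, and the main comparison, made by group only, did not use it. Deviations cancel out within a group, so likeness of the libraries numbered 3 alone tends to raise correlations among the others. Tshr+/+ 2 correlated more with Tshr-/- 1 (0.344) than with Tshr-/- 2. The 37 genes, the lists and the alternatives were chosen with earlier results of these data known. Every library is given for genes without overlap between groups, the 3 most abundant and those below the filter; other genes given by library, among them those low in the libraries numbered 3, were picked after their values were seen. The values of 1 gene outside the 37 are not reported here. Of the 37 genes, 18 overlap another annotated gene in GENCODE M21, and 6 a protein-coding gene.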

Additional observations from a re-analysis of the deposited data

How the results depend on the processing

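The count of 0 among the 36 signalling genes, and of 0 among the other genes of the route, held under all 19 alternatives, with limma or voom. Over all tested genes, array weights called 13 higher and 11 lower genes, leaving out both libraries numbered 3 called 10 higher and 8 lower, and leaving out 1 library at a time called 0 to 2 higher; none of these was among the 37. The replicate number as a block changed no call, and 0 genes passed. The median log2 fold change stayed at -0.08, which this block cannot change, since each number has 1 library of each genotype. The median was -0.007 to -0.10 with each library left out and moved to -0.18 without the libraries labelled Tshr-/- 1 and 2.

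The count of genes without overlap was 0 with libraries rescaled to equal totals (4.85% of all tested genes) and 1 to 18 with each library left out, the 18 without Tshr+/+ 3 (35.6%). Without both libraries numbered 3 it was 19 (47.7%), and with only library 3 of those labelled Tshr-/- it was 12 (48.9%); fewer libraries overlap less by construction. Directions turned for Rel without Tshr+/+ 1 (0.073), Tshr+/+ 2 (0.20) or Tshr-/- 3 (0.14), for Nfkbie without the same libraries (0.009, 0.10 and 0.16), and for Nfkb2 (0.090) and Relb (0.036) without Tshr+/+ 2. With 1 library left out the lowest values, all without Tshr+/+ 3, were -0.58, -0.95, -0.81 and -0.55 for Rel, Nfkbie, Nfkb2 and Relb; without the libraries labelled Tshr-/- 1 and 2 they were -0.58, -1.15, -0.64 and -0.63. Traf3 (0.14 to 0.24) and Map2k3 (-0.55 to -0.14) kept their direction with each library left out. For Traf3 that direction is fixed, because its groups do not overlap.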

Other observations

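Genes that hold NF-kB back or steer it, outside the 37 and named here after their values were seen, differed in how they varied. Tnfaip3, which encodes the ubiquitin-editing inhibitor A20, had 63.2, 82.5 and 35.5 FPKM in Tshr+/+ and 86.3, 76.1 and 60.9 FPKM in Tshr-/-. Its libraries numbered 3 were the lowest of the 6, and the groups overlapped. Nfkbid, a nuclear IkB protein gene, had 134, 129 and 97.5 FPKM against 169, 185 and 100.3 FPKM, again with both libraries numbered 3 lowest. Bcl3, another nuclear IkB protein gene, did not follow that order: it had 19.8, 28.7 and 25.6 FPKM against 19.8, 21.2 and 17.5 FPKM. The linear ubiquitin ligase was steady in its accessory subunits, with Rbck1 at 19.9 to 22.3 FPKM and Sharpin at 16.4 to 19.4 FPKM over the 6 libraries. None of these genes passed between the genotypes (limma, adjusted p = 0.9997).

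The p38 kinases besides Mapk14 were of unequal abundance. Mapk13 had 65.6, 74.6 and 61.3 FPKM in Tshr+/+ and 53.0, 69.1 and 49.6 FPKM in Tshr-/-, while Mapk11 and Mapk12 had at most 0.150 FPKM in any library. Mapk10, a JNK gene known from neurons, was listed at 0 in 4 of the 6 libraries.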
